A study of Mus musculus with 7 samples.

Results

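The ligands of the tumor necrosis factor (TNF) superfamily were followed in splenic CD4+CD25+ cells of aged and young mice, through the 10 genes Tnf, Lta, Ltb, Tnfsf8, Tnfsf10, Tnfsf11, Tnfsf13b, Tnfsf14, Cd40lg and Fasl. Their symbols were looked up among the 25469 genes of the deposited series table, in which each had 1 entry, and all 10 passed the filter on low counts that left 13904 genes for the test. RNA-sequencing had been done on cells of wild-type mice aged 18 months (3 biological replicates) and 8 weeks (4 biological replicates), and the labels name no treatment. The study's methods describe male C57BL/6 mice, give its young mice a different age from the labels, and isolate regulatory T cells (Tregs) of the spleen with a commercial kit. Whether a replicate was 1 mouse or a pool is not given in the sources used here. The comparison asks how the transcripts of these ligands differ between aged and young Tregs.

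TNF superfamily ligands are mostly membrane proteins that assemble as trimers and bind receptors of the TNF receptor superfamily on neighbouring cells. Some, such as TNF and TNFSF13B, are also released in soluble form. Their receptors signal through TRAF adaptors to NF-kappa B, or through death domains to caspases. In the spleen these ligands shape lymphoid architecture, B cell survival, T cell costimulation and the death of activated lymphocytes. Tregs are known both to carry several of the ligands and to depend on TNFR2, the receptor encoded by Tnfrsf1b.

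Libraries held 10734234 to 13649310 reads on genes, and a further 13.1% to 20.9% of reads lay on no gene or on several. Every aged library was shallower than every young one. Foxp3, Cd4 and Il2ra were read in all 7 libraries, at 516, 441 and 380 CPM (mean of 3 aged libraries) and 446, 545 and 579 CPM (mean of 4 young libraries). Other cells were present in the isolate. Summed over 7 listed genes, B cell markers reached 893 to 1753 CPM in aged and 1361 to 2087 CPM in young libraries. Haemoglobin genes, from red blood cells, took 5.91% to 13.1% of gene reads in 5 libraries but 1.27% in aged replicate 1 and 1.24% in young replicate 2, and leaving them out with the mitochondrial and immunoglobulin genes kept the calls of Tnf, Tnfsf8 and Tnfsf13b. Mitochondrial genes took 5.08% to 10.7% of gene reads in aged and 2.63% to 3.23% in young libraries. CPM are the reads on a gene relative to the size of its library, after TMM scaling, and p-values are from edgeR's quasi-likelihood test on counts with Benjamini-Hochberg adjustment over all 13904 genes.

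Of the 10 ligand genes, 3 were higher in aged Tregs with an adjusted p under 0.05 and none was lower by that test, beside 16.7% of all genes tested that were called (9.8% higher and 6.94% lower). By edgeR's unadjusted p, 6 of the 10 genes were under 0.05, beside 32.7% of all genes tested. Of these 6, Lta and Ltb (lower in aged Tregs) and Fasl (higher on average) were not called. DESeq2 called Ltb lower (17.7% of all genes called), so the count of 0 lower genes depends on the test. Below, values of single libraries follow the order of the replicate numbers. Tnfsf13b, Tnfsf8 and Tnf were the higher genes, by 6.23-fold, 2.32-fold and 1.75-fold. In 5 of the 10 genes no aged library overlapped a young one, 3 with the aged values above and 2 below, beside 29.9% of all genes tested. The median log2 fold change of the 10 genes was 0.10, against 0.02 over all genes tested. In bulk samples, fewer cells of a type and less RNA per cell cannot be told apart.

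**Figure D1:**
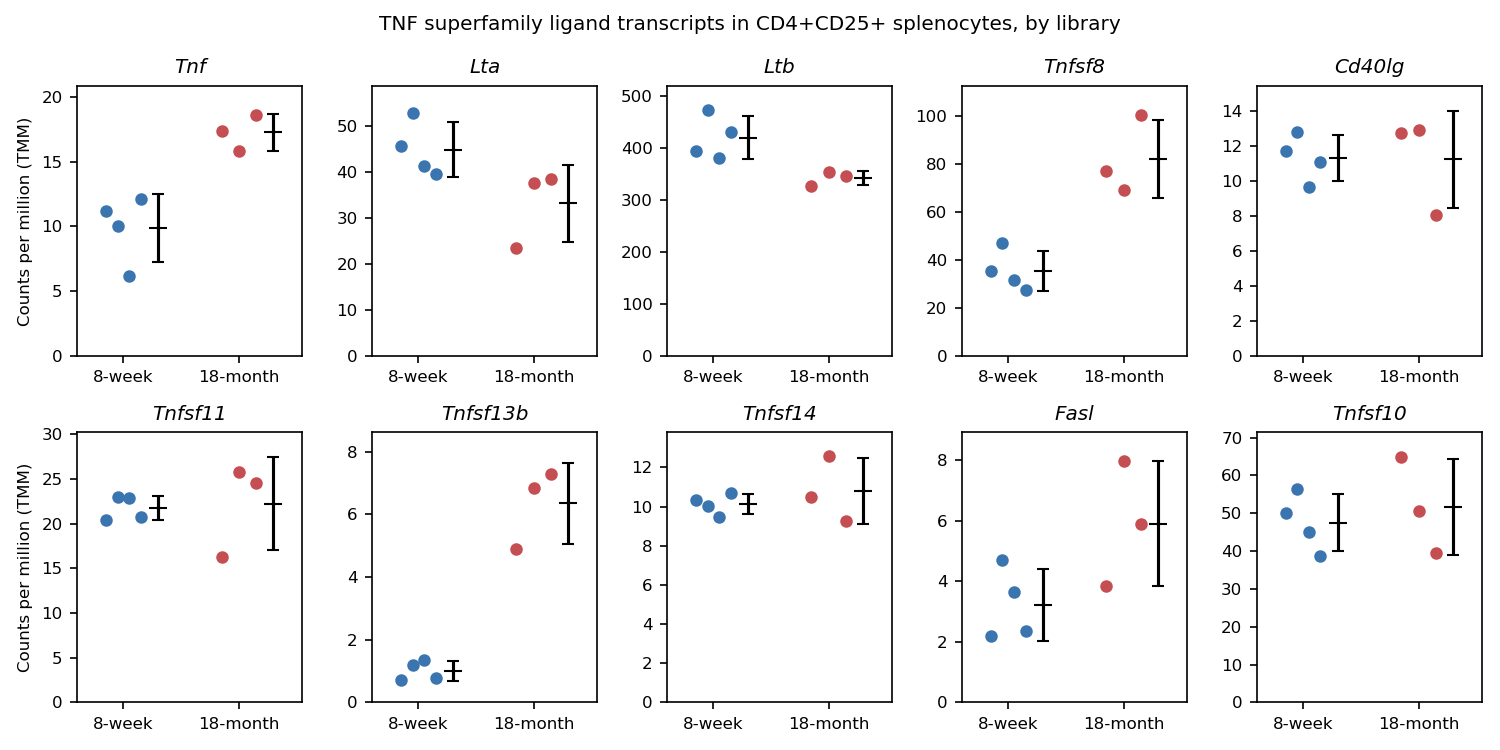
CPM of each ligand transcript (vertical axes, from 0) in the 4 libraries from 8-week mice (blue) and the 3 from 18-month mice (red), 1 point per library, with the mean and SD in black. Aged and young points separate for Tnf, Tnfsf8 and Tnfsf13b, which were higher, and for Lta and Ltb, which were lower without passing the test, and overlap in the other 5 genes.

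Tnf, Lta and Ltb lie beside each other in the major histocompatibility complex. On chromosome 17 of GRCm38, Ltb occupies 35194439 to 35196320 on the plus strand, Tnf 35199381 to 35202007 and Lta 35203165 to 35205351, both on the minus strand. The whole span is 10913 bases, with 1157 bases between Tnf and Lta. No exon of any of the 10 genes overlaps an exon of another gene in GENCODE M21, so reads could be assigned although strand was not used.

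The sequence just before the start site is shown for the neighbours Tnf and Lta, whose aged values lay on opposite sides of the young ones, and for Tnfsf13b and Tnfsf8, the ligands with the largest differences. Capitals mark each GGAAA, the core that NFAT factors bind, on either strand (TTTCC when read on the other strand), and each TATAAA. Sequences run 5′ to 3′ on the strand of the gene and are RefSeq's on GRCm38.p6, cut where the GENCODE M21 gene begins. They lie at chr17:35202008-35202257 on the minus strand for Tnf, chr17:35205352-35205601 on the minus strand for Lta, chr8:10006217-10006466 on the plus strand for Tnfsf13b and chr4:63861348-63861534 on the minus strand for Tnfsf8.
Tnf: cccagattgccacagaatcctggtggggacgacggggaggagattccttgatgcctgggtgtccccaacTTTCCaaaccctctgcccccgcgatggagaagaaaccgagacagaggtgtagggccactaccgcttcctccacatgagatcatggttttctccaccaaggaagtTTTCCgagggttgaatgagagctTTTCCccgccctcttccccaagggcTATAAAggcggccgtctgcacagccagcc
Lta: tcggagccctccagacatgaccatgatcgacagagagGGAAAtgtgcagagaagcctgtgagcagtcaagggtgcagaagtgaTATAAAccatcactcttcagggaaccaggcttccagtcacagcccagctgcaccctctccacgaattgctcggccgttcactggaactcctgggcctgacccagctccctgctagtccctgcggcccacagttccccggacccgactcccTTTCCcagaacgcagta
Tnfsf13b: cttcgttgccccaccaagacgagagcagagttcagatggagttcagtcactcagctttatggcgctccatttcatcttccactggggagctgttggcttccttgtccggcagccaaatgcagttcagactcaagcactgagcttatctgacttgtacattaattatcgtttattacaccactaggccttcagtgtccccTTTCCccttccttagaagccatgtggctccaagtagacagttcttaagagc
Tnfsf8: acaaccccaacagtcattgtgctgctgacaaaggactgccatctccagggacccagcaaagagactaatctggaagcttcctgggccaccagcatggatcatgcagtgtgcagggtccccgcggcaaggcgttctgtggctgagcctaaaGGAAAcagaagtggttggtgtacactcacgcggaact

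Tnf had 3 matches to GGAAA in this window and Lta had 2, while Tnfsf13b and Tnfsf8 had 1 each. All 9 ligand genes with a promoter in the table held at least 1 such match, beside 55.7% of 32536 promoter windows of 250 bases, and Cd40lg had no entry. TATAAA was found before 3 of the 9 genes, at 29 bases before the start of Tnf, 167 before that of Lta and, on the other strand, 32 before that of Tnfsf11, and 12.3% of the windows hold it on either strand. The NF-kappa B consensus motif was found before 1 of the 9 genes, Ltb, where it overlaps the GGAAA match, against 3.92% of the windows. TGANTCA, the AP-1 motif, was found before Tnfsf14 alone among those 9, against 6.73% of the windows. The windows of Ltb, Tnfsf8 and Tnfsf10 were shorter than 250 bases, with 187 bases for Tnfsf8. A match describes the letters only.

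Tnf (ENSMUSG00000024401) encodes the cytokine TNF, which acts on TNFR1 and TNFR2. It was read at 17.4, 15.8 and 18.6 CPM in the aged libraries and at 11.2, 10.02, 6.16 and 12.1 CPM in the young ones. Every aged library was above every young one, and young replicate 3 was the lowest of all. The means were 17.3 ± 1.41 CPM (SD, n = 3) and 9.87 ± 2.62 CPM (SD, n = 4). The log2 fold change was 0.81 (standard error 0.219, 95% interval 0.31 to 1.31, adjusted p = 0.0395 from edgeR). This call was narrow. It was lost on leaving out any aged replicate or young replicate 1, 2 or 4, with adjusted p-values from 0.0521 to 0.121 and log2 fold changes from 0.75 to 0.92, and it held at 0.64 with young replicate 3 left out (adjusted p = 0.0426 from edgeR). Marker sums of other cells in the isolate are given above for B cells and below for myeloid cells. The part of such cells in the Tnf value was not tested.

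Lta (ENSMUSG00000024402) encodes lymphotoxin alpha, which forms a homotrimer that shares the TNF receptors and joins lymphotoxin beta in a membrane heterotrimer. Its levels were 23.6, 37.6 and 38.6 CPM in the aged libraries and 45.8, 53.0, 41.3 and 39.6 CPM in the young ones. All aged values lay below all young ones, with aged replicate 3 close to young replicate 4 and aged replicate 1 well below the other aged libraries. The log2 fold change of -0.44 (standard error 0.186) was not called (adjusted p = 0.145 from edgeR) and was -0.24 without aged replicate 1.

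Ltb (ENSMUSG00000024399) encodes lymphotoxin beta, the membrane partner of Lta needed for lymph node and splenic follicle organization. It was the most abundant ligand transcript, with 326, 353 and 346 CPM in the aged libraries and 394, 473, 380 and 429 CPM in the young ones. No aged library reached the young range. The log2 fold change was -0.29 (standard error 0.113, 95% interval -0.55 to -0.036, adjusted p = 0.11 from edgeR). DESeq2 called it lower (log2 fold change -0.32, adjusted p = 0.039), and adjusted p-values over the alternatives ran from 0.039 to 0.309. When trends with GC content and gene length were taken out of every library (19% of all genes called), both Lta (-0.55, adjusted p = 0.0362 from edgeR) and Ltb (-0.32, adjusted p = 0.0459) were called lower and Tnf was not called (0.74, adjusted p = 0.0572). The part of B cells and other cells of the isolate in the Lta and Ltb values was not tested either.

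The balance within this gene cluster does not depend on library scaling. Reads on Tnf per read on Lta were 0.737, 0.421 and 0.483 in the aged libraries and 0.244, 0.189, 0.149 and 0.306 in the young ones. The aged ratios were all above the young ones, by 1.31 on the log2 scale (two-sided exact permutation p = 0.0571, adjusted p = 0.0857 over 3 ratios). With 3 against 4 libraries, 0.0571 is the smallest p that this exact test can give. Against Ltb, Tnf differed by 1.14 on the log2 scale with the same exact p of 0.0571. Aged CPM were all above the young ones for Tnf and all below them for Lta and Ltb. The separation of both ratios, and so their exact p, was thus fixed in advance and adds no separate support. For Lta against Ltb the ratios overlapped, at 0.0723 to 0.111 in aged and 0.0922 to 0.116 in young libraries, with a log2 difference of -0.17 (two-sided exact permutation p = 0.4).

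**Figure D2:**
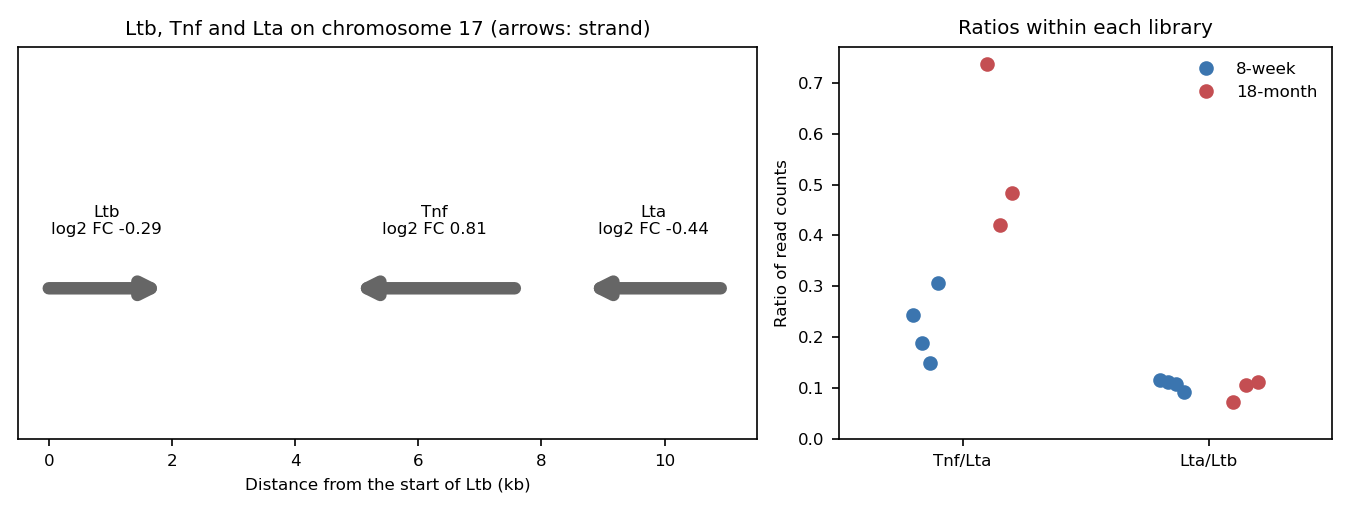
Left, positions of Ltb, Tnf and Lta on chromosome 17 as distance in kb from the start of Ltb, with arrows for the strand and the log2 fold change of aged over young Tregs; right, the ratio of read counts of Tnf to Lta and of Lta to Ltb in each library (blue, 8-week; red, 18-month). The Tnf/Lta ratios of the 3 aged libraries lie above those of the 4 young ones, while the Lta/Ltb ratios overlap.

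Tnfsf8 (ENSMUSG00000028362), at 63831308 to 63861347 on chromosome 4, encodes CD30 ligand, a costimulatory ligand of activated T cells. It was read at 77.1, 69.3 and 100.6 CPM in the aged libraries and at 35.6, 47.2, 31.7 and 27.5 CPM in the young ones. The lowest aged library stood well above the highest young one, young replicate 2. The mean rose to 82.3 ± 16.3 CPM (SD, n = 3) against 35.5 ± 8.47 CPM in young Tregs (SD, n = 4). The log2 fold change was 1.21 (standard error 0.196, 95% interval 0.77 to 1.66, adjusted p = 0.00572 from edgeR). The call was kept in all 7 fits that each left out 1 library, with log2 fold changes from 1.05 to 1.38. Markers of activated or memory CD4 T cells, 9 genes in sum, were at 607 to 658 CPM in aged and 348 to 475 CPM in young libraries, with 4 of the 8 tested called higher and none lower, and their part in this result was not tested.

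Cd40lg, at 57212143 to 57224042 on chromosome X, encodes CD40 ligand, the signal by which helper T cells activate B cells and dendritic cells. It stood at 12.8, 12.9 and 8.05 CPM in the aged libraries and at 11.7, 12.8, 9.63 and 11.1 CPM in the young ones. The groups overlapped, with aged replicate 3 the lowest of the 7. Its log2 fold change was -0.012 (adjusted p = 0.976 from edgeR), and the 95% interval of -0.46 to 0.44 leaves differences within it unresolved.

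Tnfsf11, at 78277445 to 78308043 on chromosome 14, encodes RANKL, known for bone resorption and for the development of the thymic medulla. Its aged libraries had 16.2, 25.8 and 24.6 CPM, and its young ones had 20.4, 23.0, 22.9 and 20.8 CPM. The young values lay inside the aged range, of which replicate 1 was the low end. Its log2 fold change of 0.027 had a 95% interval of -0.35 to 0.41 (adjusted p = 0.931 from edgeR).

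Tnfsf13b (ENSMUSG00000031497) encodes BAFF, the survival factor of mature B cells, and is known mainly as a product of myeloid and stromal cells. It lies at 10006467 to 10039072 on chromosome 8. It was counted 56, 68 and 78 times in the aged libraries and 8, 17, 17 and 11 times in the young ones, all above the limit of 3 counts taken for detection. The corresponding levels were 4.89, 6.85 and 7.30 CPM and 0.699, 1.19, 1.34 and 0.788 CPM. Each aged library was several times above each young one. The log2 fold change of 2.64 (standard error 0.288, 95% interval 1.98 to 3.30, adjusted p = 0.00126 from edgeR) was the largest of the 10 ligands, and it stayed between 2.51 and 2.80, always called, whichever library was left out. With at least 10 counts required in every library, the gene was not tested.

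Since BAFF is a myeloid product, Tnfsf13b was set beside listed markers of myeloid cells. Neutrophil markers, 8 genes in sum, were at 3261, 1329 and 587 CPM in the aged libraries and at 170 to 614 CPM in young libraries, and 5 of the 8 were called higher. S100a8 and S100a9 carried most of this sum. In aged replicate 3 the sum lay within the young range. Of the 8 markers, Csf3r, Cxcr2, Retnlg, Mmp9 and S100a9 were above every young library there, S100a9 narrowly at 324 against 321 CPM, while S100a8, Ly6g and Mmp8 were within the young range. Csf3r, the receptor of the neutrophil growth factor G-CSF, was at 53.1 CPM in that library and at no more than 22.7 CPM in a young one. Neutrophil sums and Tnfsf13b were both higher on average in aged Tregs, and the part of neutrophils in this result was not tested. The sum of 4 platelet markers was also higher in each aged library (18.8 to 39.4 CPM) than in each young one (8.13 to 16.8 CPM), with 1 of the 4, Ppbp, called higher (log2 fold change 1.80, adjusted p = 0.0213 from edgeR), and the part of platelets was not tested either. Monocyte or macrophage markers, 9 genes in sum, were at 381 to 537 CPM in aged and 496 to 580 CPM in young libraries, with 3 of 9 called lower. Dendritic cell markers, 8 genes in sum, were lower in each aged library (47.6 to 67.1 CPM) than in each young one (78.9 to 98.8 CPM), with 4 called lower and 1, Zbtb46, called higher, a call lost without aged replicate 3 (adjusted p = 0.06 from edgeR). None of the markers in these lists was at 0 in all libraries.

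**Figure D3:**
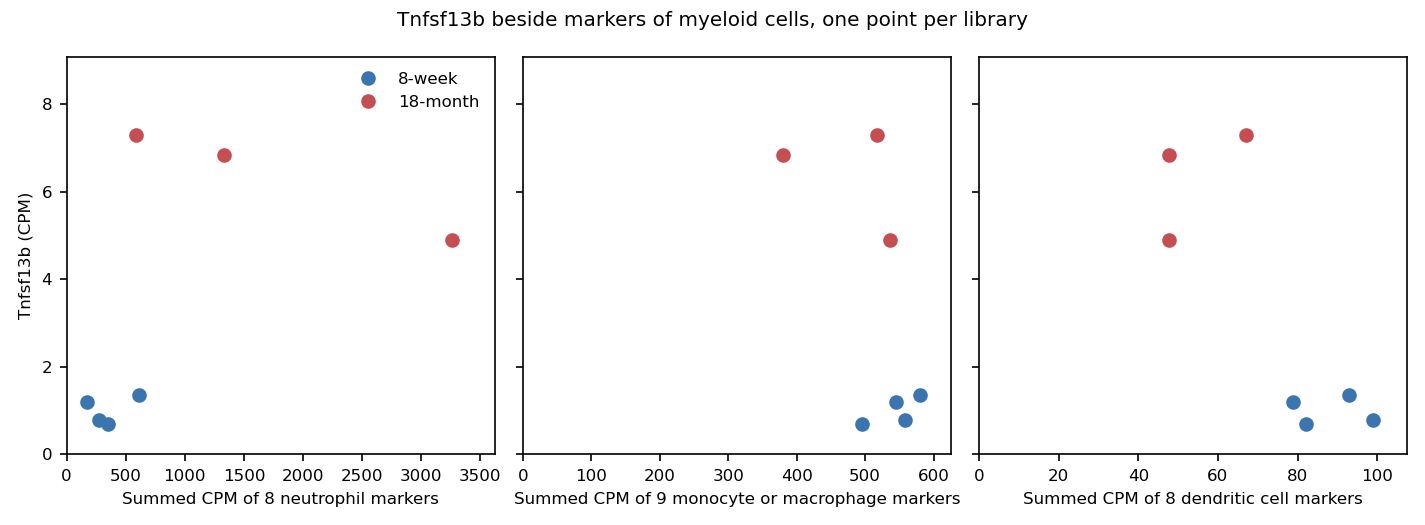
Tnfsf13b in CPM (vertical axis) against the summed CPM of 8 neutrophil, 9 monocyte or macrophage and 8 dendritic cell markers (horizontal axes), 1 point per library, blue for 8-week and red for 18-month mice. In every panel the aged libraries, at 4.89 to 7.30 CPM of Tnfsf13b, lie above the young ones, and neutrophil sums of 2 aged libraries lie above the young range while that of aged replicate 3 (587 CPM), carried mostly by S100a8 and S100a9, lies inside it. Of the 8 markers in aged replicate 3, 5 were above every young library and 3 within the young range.

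Tnfsf14, at 57189492 to 57194177 on chromosome 17, encodes LIGHT, which binds HVEM and the lymphotoxin beta receptor. Its aged values of 10.5, 12.6 and 9.26 CPM enclosed the young values of 10.3, 10.02, 9.48 and 10.7 CPM. The young libraries lay close together, with an SD of 0.508 CPM around 10.1 CPM (n = 4). On the log2 scale the fold change was 0.090 (95% interval -0.25 to 0.43, adjusted p = 0.726 from edgeR).

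Fasl and Tnfsf10 encode the death ligands FasL and TRAIL. Fasl, at 161780689 to 161788495 on chromosome 1, had 3.84, 7.96 and 5.90 CPM in the aged libraries and 2.18, 4.69, 3.63 and 2.37 CPM in the young ones. Aged replicate 1 lay inside the young range and the other aged libraries above it. Its log2 fold change of 0.86 (standard error 0.344) was not called (adjusted p = 0.122 from edgeR). It was 1.09 without aged replicate 1 and 0.59 without aged replicate 2, and it was called in none of the 18 alternatives, with adjusted p-values of 0.0574 to 0.325. Cells other than Tregs can carry Fasl too. The 6 NK cell markers in sum were at 17.5 to 27.9 CPM in aged and 28.9 to 43.5 CPM in young libraries, and the sum of the activated or memory CD4 T cell markers, given for Tnfsf8, was higher in every aged library, while Pdcd1, Bcl6, Ifng and Il2 of that list overlapped between the groups. Of 3 CD8 T cell markers, Cd8a and Cd8b1 were not called and Gzmk was called higher (log2 fold change 3.54, adjusted p = 0.00838 from edgeR). The part of these cells in the Fasl value was not tested.

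Tnfsf10, at 27317028 to 27342427 on chromosome 3, stood at 64.7, 50.5 and 39.6 CPM in the aged libraries and at 50.0, 56.3, 45.1 and 38.6 CPM in the young ones. Both groups covered nearly the same range, apart from aged replicate 1. Its log2 fold change was 0.12 (95% interval -0.30 to 0.54, adjusted p = 0.695 from edgeR), and it turned to -0.081 without aged replicate 1.

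**Figure D4:**
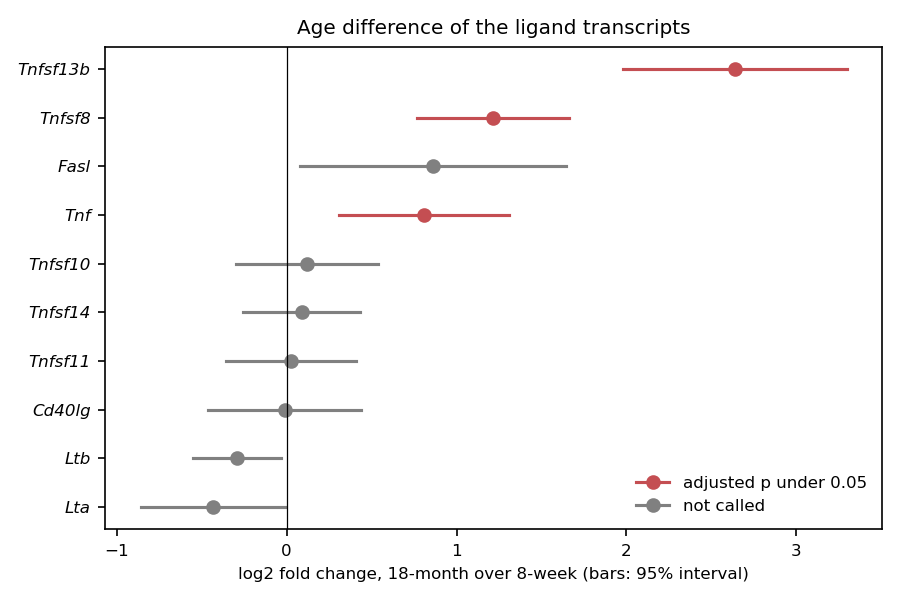
Log2 fold change of aged (18-month) over young (8-week) Tregs for the 10 ligand genes, with points for the estimate and bars for its 95% interval; red marks an adjusted p under 0.05 and grey the genes not called. The intervals of Tnfsf13b, Tnfsf8 and Tnf lie above 0 with calls, and those of Tnfsf10, Tnfsf14, Tnfsf11 and Cd40lg include 0. Those of Fasl (above 0) and of Lta and Ltb (below 0) exclude 0 without a call. The bars are not adjusted for the number of genes tested.

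Compared per length, as CPM per kb of merged exons, Ltb was far ahead of the other ligands, with 276 ± 27.2 (SD, n = 4) in young and 226 ± 9.27 (SD, n = 3) in aged Tregs. It made up 75.6% to 78.9% of the summed level of the 10 genes per kb in young libraries and 69.6% to 71.4% in aged ones. Lta came next in young Tregs at 32.5 ± 4.33 CPM per kb (SD, n = 4). Below it, Tnfsf11, Tnfsf8, Cd40lg and Tnfsf10 had means between 9.02 and 9.74 CPM per kb and overlapped each other's range over the young libraries. Tnf (6.02) overlapped Tnfsf10 above it and Tnfsf14 (5.48) below it, and Fasl (1.66) and Tnfsf13b (0.146) stood apart at the bottom. In aged Tregs, Tnfsf8 reached 21.6 ± 4.28 CPM per kb (SD, n = 3), a level that overlapped that of Lta at 24.0 ± 6.05 (SD, n = 3). Tnf moved from rank 7 to rank 4 at 10.5 ± 0.86 CPM per kb (SD, n = 3), where its range overlapped those of Tnfsf11, Tnfsf10 and Cd40lg at ranks 5 to 7. Tnfsf13b was the lowest in both groups. Its share of the summed level per kb was at most 0.0599% in a young library and at least 0.236% in an aged one.

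**Figure D5:**
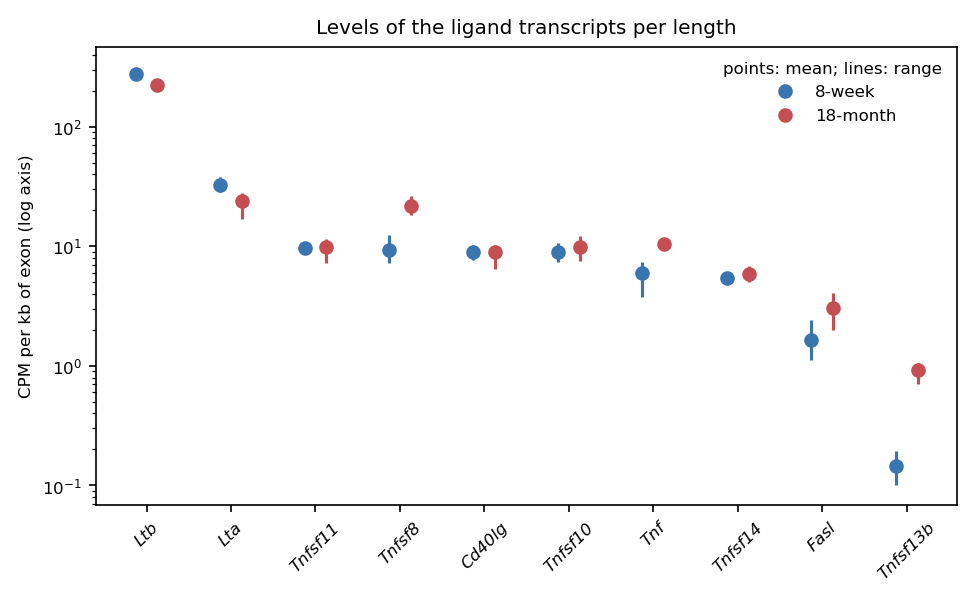
Level of each ligand transcript in CPM per kb of exon (log axis), as mean (point) and range over libraries (line) in 8-week (blue) and 18-month (red) mice, ordered by the young mean. Ltb leads in both groups at 276 and 226 CPM per kb, and Tnfsf13b is last at 0.146 and 0.924.

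For the 3 called ligands, the genes nearest in pattern were taken among those averaging at least 3 on the log2 CPM scale, by the root mean square difference of centred log2 CPM over the 7 libraries. For Tnf they were Rnf122, Gadd45b and Gnaq, with differences of 0.172, 0.184 and 0.211. Gadd45b itself was not called (log2 fold change 0.49, adjusted p = 0.15 from edgeR). For Tnfsf8 they were Spock2, Fgl2 and Ncmap, at 0.107, 0.117 and 0.123. For Tnfsf13b they were Ttc39c, Ifitm1 and Naip5, less close at 0.28, 0.301 and 0.319, with log2 fold changes of 2.22, 2.52 and 2.43. Because the difference is taken over libraries of both ages, similar fold changes follow in part from this choice of genes.

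The receptors of these ligands were read for 15 genes, of which 14 were tested, 1 was called higher and 1 lower (beside 9.8% and 6.94% of all genes), and 6 had an unadjusted p under 0.05 (beside 32.7%). Their median log2 fold change was 0.21. Tnfrsf1b, which encodes TNFR2, was higher in aged (451 ± 48.5 CPM, SD, n = 3) than in young Tregs (265 ± 46.8 CPM, SD, n = 4), by 0.76 on the log2 scale (adjusted p = 0.0135 from edgeR). Its call was lost without aged replicate 3 (0.69, adjusted p = 0.0506). Tnfrsf1a, the gene of TNFR1, was at 24.0 ± 2.05 CPM (SD, n = 4) in young and 26.2 ± 2.42 CPM (SD, n = 3) in aged Tregs and was not called (adjusted p = 0.517 from edgeR). The receptor of Tnfsf8, Tnfrsf8 (CD30), had a log2 fold change of 0.54 (adjusted p = 0.0791 from edgeR), and was called without young replicate 2 (0.70, adjusted p = 0.0233).

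The receptors for BAFF are known best from B cells and plasma cells, and have also been described on some T cells. Tnfrsf13c, the BAFF receptor gene, was lower in aged (37.3 ± 12.8 CPM, SD, n = 3) than in young Tregs (71.0 ± 17.6 CPM, SD, n = 4), with a log2 fold change of -0.93 (adjusted p = 0.0391 from edgeR). This call was lost without aged replicate 1 or 2 or young replicate 1, 3 or 4, with adjusted p-values up to 0.109 and log2 fold changes from -0.75 to -1. Of 7 B cell markers, 1 (Fcrla) was called lower, a call lost without aged replicate 2 or young replicate 1, 3 or 4 (adjusted p 0.069 to 0.0891 from edgeR). Ms4a1 was below every young library in each aged one without passing the test (-0.65, adjusted p = 0.0562 from edgeR). Pax5, Cd79b and Cd79a had log2 fold changes of -0.62, -0.50 and -0.40 with overlapping groups, and Cd22 had one of 0.15, none of them called. The aged and young ranges of the sum of the 7 markers, given above, overlapped, and the part of B cells in this value was not tested. Tnfrsf13b (TACI) had a log2 fold change of -0.34 (adjusted p = 0.13 from edgeR; -0.19 without aged replicate 1) and Tnfrsf17 (BCMA), with 16, 20 and 30 counts in aged and 3, 47, 9 and 13 in young libraries, one of 0.64 (adjusted p = 0.564). The Tnfrsf17 value rested on young replicate 2, without which it was 1.66 (adjusted p = 0.0558 from edgeR). Tnfrsf17 is itself 1 of the 5 plasma cell markers listed. Their sum was also high in that library, at 1920 CPM against 287 to 448 CPM in the other young ones. In the aged libraries the sum was 682 to 1227 CPM, and the part of plasma cells was not tested.

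No other receptor was called. Fas, the receptor of FasL, was at 32.9 ± 0.37 CPM (SD, n = 4) in young and 37.9 ± 0.813 CPM (SD, n = 3) in aged Tregs, with no overlap between the groups and a log2 fold change of 0.20 (adjusted p = 0.134 from edgeR). The TRAIL receptors Tnfrsf10b, Tnfrsf22 and Tnfrsf23 had log2 fold changes of 0.38, 0.27 and 1, with Tnfrsf23 at only 1.22 and 2.42 CPM in young and aged Tregs. Ltbr, the lymphotoxin beta receptor, was low at 3.28 and 3.80 CPM, and Tnfrsf14 (HVEM) at 40.4 and 45.4 CPM, with log2 fold changes of 0.21 (0.055 without aged replicate 3) and 0.17. Cd40 (0.026) and Tnfrsf11a, which encodes RANK (-0.12), lay near 0 on the log2 fold change scale. Tnfrsf11b, the decoy receptor of RANKL, was under the filter with 3 reads in all.

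Of the other 8 ligand genes of the superfamily, 3 had enough reads for the test. Tnfsf4, which encodes OX40 ligand, was called higher, with 1.90 ± 0.759 CPM in aged (SD, n = 3) and 0.819 ± 0.0614 CPM in young Tregs (SD, n = 4), on 9 to 30 counts in a library. Its log2 fold change of 1.21 (adjusted p = 0.0437 from edgeR) was called in 4 of 17 alternatives, and it lost its call without aged replicate 1 or 3 or any one young replicate. Tnfsf9, which encodes 4-1BB ligand, had a log2 fold change of 1.25 (adjusted p = 0.128 from edgeR) and was called without young replicate 1 (1.85, adjusted p = 0.0348), and Tnfsf12 had one of -0.27 (adjusted p = 0.686), which turned to 0.042 without aged replicate 1. Tnfsf13, Tnfsf15, Tnfsf18, Cd70 and Eda were under the filter, with at most 9 counts in any library. Cd70, the ligand of CD27, was counted 5, 6 and 9 times in aged and 1, 3, 2 and 2 times in young libraries.

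Among 12 genes of ligand release and mRNA turnover, 1 was called higher and 1 lower, a share equal to the 16.7% called over all genes, with a median log2 fold change of -0.13. Zfp36l2, an RNA-binding protein that destabilizes AU-rich transcripts, was lower in aged (336 ± 122 CPM, SD, n = 3) than in young Tregs (725 ± 104 CPM, SD, n = 4), with a log2 fold change of -1.11 (adjusted p = 0.0239 from edgeR), a call lost without young replicate 1 or 4 (adjusted p = 0.059 and 0.0586). Zfp36, which encodes tristetraprolin and is known to act on Tnf mRNA, was at 584 ± 200 CPM (SD, n = 4) in young and 320 ± 90.2 CPM (SD, n = 3) in aged Tregs, overlapped and was not called (adjusted p = 0.0997 from edgeR), though it was called by DESeq2 (adjusted p = 0.0134) and without young replicate 3 (adjusted p = 0.0232 from edgeR). Adam17, the protease that sheds TNF, had a log2 fold change of -0.19 and was not called (adjusted p = 0.162 from edgeR). Rhbdf1, which encodes iRhom1, a cofactor of ADAM17, rose from 2.98 to 9.18 CPM (log2 fold change 1.61, adjusted p = 0.00867 from edgeR), while Rhbdf2 had a log2 fold change of 0.00059 (adjusted p = 0.998).

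Among 14 receptor signalling adaptors, 3 were called higher and 2 lower (beside 9.8% and 6.94% of all genes), with a median log2 fold change of -0.17. Traf1 (0.81, adjusted p = 0.00396 from edgeR) and Birc2, which encodes cIAP1 (0.75, adjusted p = 0.00675), kept their calls whichever library was left out. Cflar, which encodes the caspase-8 inhibitor c-FLIP, was higher by a log2 fold change of 0.37 (adjusted p = 0.0289 from edgeR) and kept the call in 2 of those 7 fits, losing it without aged replicate 3 or any one young replicate (adjusted p 0.0574 to 0.0995). Map3k14, the NIK kinase of the noncanonical NF-kappa B pathway, was lower (-0.45, adjusted p = 0.0209 from edgeR), as was Ripk1, a kinase of the TNFR1 complex (-0.64, adjusted p = 0.0357), with 4 and 1 of those 7 fits calling them. Map3k14 lost its call without aged replicate 2 or young replicate 1 or 4 (adjusted p 0.0503 to 0.0628), and Ripk1 was called in the single fit that omitted aged replicate 1 (-0.88, adjusted p = 0.0047).

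Of 13 TNF response genes, 4 were called higher and none lower by edgeR on all libraries (beside 9.8% and 6.94% of all genes), with 8 at an unadjusted p under 0.05 in either direction (beside 32.7%) and a median log2 fold change of 0.02. Icam1, an adhesion molecule (0.67, adjusted p = 0.00339 from edgeR), and the chemokine genes Ccl5 (1.41, adjusted p = 0.00384) and Cxcl10 (2.49, adjusted p = 0.00754) were called in all 7 fits that left out 1 library. The size of the Cxcl10 difference rested in part on aged replicate 1, with 446 counts against 91 and 192 in the other aged libraries, and its log2 fold change was 1.79 without that library (adjusted p = 0.00682 from edgeR). Relb, an NF-kappa B subunit, had a log2 fold change of 0.42 (adjusted p = 0.0384 from edgeR) and was called in 2 of those 7 fits, the ones without aged replicate 1 or young replicate 2. Nfkbia, which encodes the inhibitor IkB alpha, was lower in each aged library without passing the test (-0.60, adjusted p = 0.0602 from edgeR), though DESeq2 called it (adjusted p = 0.00788), as did edgeR without young replicate 3 (adjusted p = 0.0459), and Tnfaip3, the gene of A20, overlapped between the groups (-0.56, adjusted p = 0.396) and was called lower without aged replicate 1 (-1.26, adjusted p = 0.025 from edgeR).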

How the data were processed

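The authors deposited raw read counts per Ensembl gene for each of the 7 libraries, made from SMART-Seq cDNA without molecular identifiers. The submitters' processing notes name mm10, and the layout is that of HTSeq-count (union mode, without strand, by its naming). The aligner is not given in the sources used here. The deposited series table holds the authors' signal, counts over 1 size factor per library, and their own comparison (fold change, p-value, adjusted p-value), neither of which was used. Only its gene symbols were taken. Summary lines of unassigned or ambiguous reads (13.1% to 20.9%) did not enter the test. Coordinates and exon lengths are those of GENCODE M21 (GRCm38, the assembly of mm10), which held 47224 of 47729 gene identifiers.

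The comparison used R 4.3.3 and edgeR 4.0.16, with TMM factors, filterByExpr by group, no covariate and the quasi-likelihood test. The study's methods name limma with the same threshold, an adjusted p under 0.05. Each standard error is the fold change (log2) divided by the square root of F, and 95% intervals use the degrees of freedom of the fit. The intervals include the spread between libraries, and the limit of 3 counts (0.21 to 0.302 CPM after TMM scaling) covers counting error only. Exact permutation tests ran over the 35 splits of 7 libraries. The text names all members, all receptors, up to 6 called genes of each pathway list by adjusted p and the 3 nearest genes of each called member. Zfp36, Adam17, Rhbdf2, Tnfsf9, Tnfsf12, Cd70, Nfkbia, Tnfaip3 and the single cell type markers other than Cd4, Il2ra and Foxp3 were named after their values were seen. The members and lists were chosen with earlier results of these data known. Alternatives were DESeq2 1.42.0, limma 3.58.1 (voom, and limma-trend with prior count 2), RLE or library size scaling, other filters, gene classes left out, thinning, a log2 fold change of at least 1, a block for replicate number, omission of each library, and removal of GC content and gene length trends, which was added after the data were seen.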

Additional observations from a re-analysis of the deposited data

Results flagged for a closer look

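Among 55 named genes, 3 had 1 young library apart from the other 3 by Dixon's criterion, and chance flags about 1 in 20 groups. Tnfsf4 was at 0.911 CPM in young replicate 2 and at 0.787 to 0.79 CPM in the other young libraries, from 13 counts against 9, 10 and 11. Spock2 was at 45.1 CPM in young replicate 2 and at 31.2 to 32.7 CPM in the others. Tnfsf9 was at 2.18 CPM in young replicate 1 and at 0.573 to 0.79 CPM in the others.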

How the results depend on the processing

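Tnfsf13b was called in all 17 alternatives that tested it and Tnfsf8 in 17 of 18, the exception being the replicate block (adjusted p = 0.0755 from edgeR). Tnf was called in 9 of 18, with log2 fold changes from 0.64 to 0.95. Across the fits that left out 1 library, between 2 and 3 ligands, 1 and 3 receptors and 1237 to 3058 genes in all were called. The correlations of same-numbered deviations were -0.088, -0.28 and -0.13. They gave no sign that the replicate numbers pair the samples, but so few values cannot exclude a pairing or a shared batch. With the replicate block, edgeR called 1 ligand (Tnfsf13b), 292 genes and 0 receptors (3 receptors at an unadjusted p under 0.05). Young replicate 4 adds nothing to that fit, being alone in its block. Requiring a log2 fold change of at least 1 left 1016 genes and 0 receptors by construction. Scaling by library size only moved the median log2 fold change of all genes from 0.02 to -0.05.

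Of the genes run under the alternatives, directions turned in these, none of them called: Tnfsf11 (-0.010 with limma voom, -0.058 with library size only, -0.018 with the replicate block, -0.070 with GC content and gene length trends removed, -0.094 to 0.21 leaving out 1 library), Cd40lg (0.0022 with at least 10 counts in every library, -0.12 to 0.18 leaving out 1 library), Cd40 (-0.052 with library size only, -0.11 to 0.27 leaving out 1 library), Rhbdf2 (-0.025 with DESeq2, -0.0081 with RLE, -0.069 with library size only, -0.022 with no filter, -0.012 after thinning, -0.14 to 0.14 leaving out 1 library), and, leaving out 1 library, Tnfsf12 (-0.48 to 0.042), Tnfsf10 (-0.081 to 0.28), Tnfsf14 (-0.036 to 0.19), Tnfrsf14 (-0.26 to 0.35), Tnfrsf22 (-0.038 to 0.43) and Tnfrsf11a (-0.41 to 0.0047). Tnfsf12 passed the filter in only 3 of the 7 fits that left out 1 library. The cause of these turns was not tested.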
